A study of Saccharomyces cerevisiae with 75 samples.

Results

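The deletion of GBP2 alone was compared with wild type at the same labelled temperature on 6 of the 75 arrays of the series. These hold 3 of the 37 extract pairs of deletion strains. The arrays were taken by their titles, which pair the gbp2 deletion (gbp2Δ, without a second deletion) with wild type. Each 2-colour array set cDNA from total RNA of the mutant against cDNA from total RNA of the wild type, 1 in Cy5 and the other in Cy3. Each extract pair was hybridised in both dye orientations. There was 1 pair from cells at 30 °C, for which no time is given, and 2 pairs from cells held for 30 min at 37 °C, called replicate 1 and replicate 2. The labels name Saccharomyces cerevisiae, the deletion, the temperature and the time. They state neither strain background, mating type and selection marker nor whether the pairs came from separate cultures or shared a wild-type RNA. Array titles start with a number whose meaning is not given. The 30 °C pair and replicate 1 at 37 °C share this number (the first title series), and replicate 2 has another (the second title series). For comparison the series holds 3 pairs of the hrb1 deletion in the same 2 title series, and 4 pairs of a strain lacking both GBP2 and HRB1 in a different title series. It also holds 6 pairs of the npl3 deletion against wild type after 30 min at 37 °C, in these and other title series, and further npl3 deletion pairs at 30 °C. The rest of the 37 pairs hold deletions of UPF1, alone or with NPL3, or the npl3 deletion at other temperatures and times.

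Gbp2 is an RNA-binding protein of the SR-like family, with RNA recognition motifs and a stretch rich in arginine, serine and glycine. It and its close relative Hrb1 are loaded onto transcripts together with the THO/TREX complex, travel with the mRNA to the cytoplasm and take part in the nuclear surveillance of spliced mRNAs. Npl3, the remaining SR-like protein of budding yeast, acts in transcription, splicing and export, and is the protein named in the title of the study. The array was built to follow splicing, and the question put to the gbp2Δ arrays is which RNAs change when Gbp2 is missing.

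Values are log2 ratios of mutant over wild type for 1536 probes. A pair value is the mean of its 2 arrays, except for 1 npl3 deletion pair at 37 °C that has a single array. Errors are the standard error (SE) of a limma model fitted to all 37 pairs, or the SD between pairs where named. The SE rests on the spread within all groups of the fit, so it is not the spread of the gbp2Δ pairs. A probe was called at a Benjamini-Hochberg adjusted p under 0.05 over all probes. The strain label was looked at with the GBP2 probe. The direction of the ratios was taken from this same probe, so its sign is not a separate check of the label. The GBP2 probe read -2.67 with the mutant in Cy5 and -2.77 with the mutant in Cy3 in the 30 °C pair. In replicate 1 at 37 °C it read -3.29 and -2.65, and in replicate 2 it read -3.12 and -3.01. All 6 arrays were therefore low, and the 3 pairs lay within a narrow band (SD 0.18, n = 3). The mean of the 3 pairs was -2.92 ± 0.18 (SE, n = 3 pairs), which is 7.55-fold lower than wild type (limma, adjusted p = 1.1e-11). In the hrb1Δ pairs the same probe read -0.16, -0.17 and -0.01, and in the double deletion it read between -4.04 and -2.58.

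**Figure D1:**
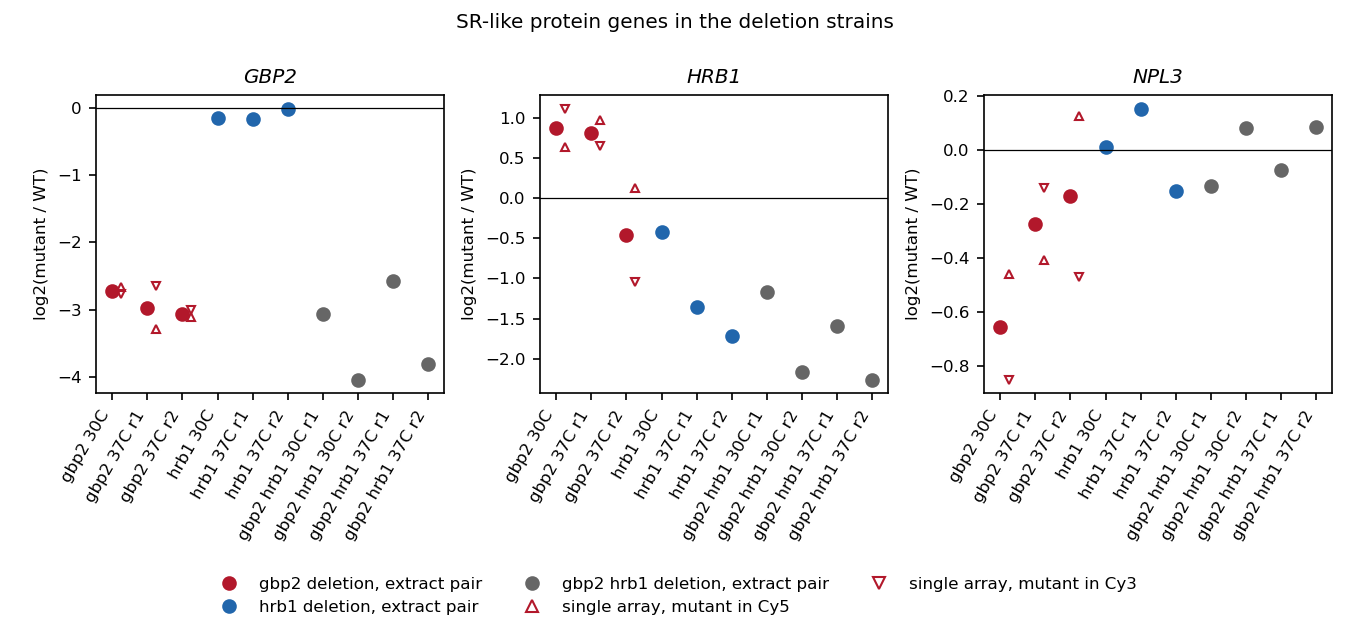
The log2 ratio of mutant over wild type is plotted for the probes of GBP2, HRB1 and NPL3 in 10 extract pairs. Filled circles are pairs, open triangles are the single arrays of the gbp2Δ pairs, and r1 and r2 are replicates. GBP2 is low in all gbp2Δ and double deletion pairs, while HRB1 is above 0 in the gbp2Δ pairs of the first title series and below 0 in that of the second. For HRB1 the single arrays of that last pair lie on opposite sides of 0.

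The other SR-like genes showed no call. HRB1 read 0.87 at 30 °C, 0.81 in replicate 1 and -0.46 in replicate 2 at 37 °C. Its mean was 0.41 ± 0.21 (SE, n = 3 pairs, limma adjusted p = 0.302), and the pairs split by title series. The arrays of replicate 2 disagreed in sign for HRB1, at 0.13 with the mutant in Cy5 and -1.04 with the mutant in Cy3. In the first title series alone HRB1 was called, at 0.84 ± 0.23 (SE, n = 2 pairs, limma adjusted p = 0.0147), where 15.0% of all probes were called. NPL3 read -0.65, -0.27 and -0.17, with a mean of -0.37 ± 0.39 (SE, n = 3 pairs, limma adjusted p = 0.672). None of the 10 genes on either side of GBP2 on its chromosome has a probe on the array, so the neighbourhood of the deletion could not be looked at.

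Besides GBP2 itself, the called probes with means furthest from 0 were those of MFA2 and MF(ALPHA)1, genes that distinguish the mating types. Haploid yeast is either of type a or of type alpha. Cells of type a make a-factor from MFA1 and MFA2, and alpha cells make alpha-factor, mainly from MF(ALPHA)1, and carry the a-factor receptor Ste3. MFA2 was higher in gbp2Δ than in wild type on all 6 arrays. It read 2.09 with the mutant in Cy5 and 3.65 with the mutant in Cy3 at 30 °C, 1.41 and 2.53 in replicate 1 at 37 °C, and 2.48 and 2.95 in replicate 2. The mean of the 3 pairs was 2.52 ± 0.37 (SE, n = 3 pairs, 5.73-fold, limma adjusted p = 0.000267), and MFA2 was also called at each temperature on its own. The call at 37 °C held in 10 of 13 alternatives and was lost without replicate 1 (limma adjusted p = 0.124), and the call at 30 °C held in 9 of 11. Over these alternatives the limma adjusted p reached 0.363 at 37 °C and 0.441 at 30 °C.

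MF(ALPHA)1 went the other way on all 6 arrays. It read -2.79 and -2.93 at 30 °C, -1.97 and -2.22 in replicate 1 at 37 °C, and -4.94 and -3.43 in replicate 2, with the mutant in Cy5 first. The mean was -3.05 ± 0.80 (SE, n = 3 pairs, 8.26-fold lower, limma adjusted p = 0.0351). That call was lost when any 1 of the 3 pairs was left out (limma adjusted p between 0.0966 and 0.224). It held in 9 of 14 alternatives, among them the gbp2Δ pairs fitted alone, and the mean stayed between -3.52 and -2.48. The SE in the main fit rests on all groups, also on the double deletion, whose pairs at 30 °C read 0.11 and -5.83.

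The remaining mating genes did not pass the test, and STE3, MFA1, MATALPHA1 and MATALPHA2 were further from 0 in the second title series than in the first. STE3 read -1.01, -1.22 and -3.12 in the 30 °C pair, replicate 1 and replicate 2, below 0 on all 6 arrays (mean -1.78 ± 0.61 SE, n = 3 pairs, limma adjusted p = 0.108). Over the alternatives the STE3 mean lay between -2.17 and -1.12, and it was called in 1 of 14. MFA1 read 0.24, 0.52 and 1.41 in the same order, and its 2 dye orientations disagreed in sign in both pairs of the first title series. MATALPHA1, the alpha-specific transcription activator, read -0.25, 0.45 and -2.02. MATALPHA2, the repressor of a-specific genes, read -0.30, -0.11 and -1.38. The minor alpha-factor gene MF(ALPHA)2 read -0.71, -0.19 and -0.47. The alpha genes at the mating locus have a silent copy, and HMRA1 and HMRA2 are themselves silent copies of a genes, so their probes may read more than 1 locus. The 3 probes of HMRA1 had means between -0.38 and 0.13, and HMRA2 had a mean of -0.44, none of them called. Of the 9 measured genes listed for the pheromone response and for haploid cells, such as SST2 and STE12, none was called. SST2, which damps the pheromone signal, read 1.16, 1.87 and -0.26, and STE12, the transcription factor of the response, read 0.59, 1.12 and -0.46. Both were above 0 in the first title series and below 0 in the second.

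MFA2 and MF(ALPHA)1 lay on the same sides of 0 in the hrb1 deletion. MFA2 read 1.98, 1.89 and 3.39 in the 3 hrb1Δ pairs, and MF(ALPHA)1 read -2.37, -3.30 and -4.96. The difference between gbp2Δ and hrb1Δ over the 3 pairs was 0.10 ± 0.52 (SE) for MFA2 and 0.50 ± 1.14 (SE) for MF(ALPHA)1, neither called (limma adjusted p = 0.973 and 0.928). In the double deletion, MFA2 read 2.27 and 2.46 in replicate 2 at 30 °C and at 37 °C, but -0.08 and -0.25 in replicate 1. MF(ALPHA)1 read -5.83 and -5.36 in replicate 2, and 0.11 and -0.17 in replicate 1. Replicate 1 of the double deletion thus had GBP2 at -3.06 and -2.58 with its mating genes near 0. Within the gbp2Δ pairs, the loss of Gbp2 and any difference in mating type between the strains cannot be told apart.

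**Figure D2:**
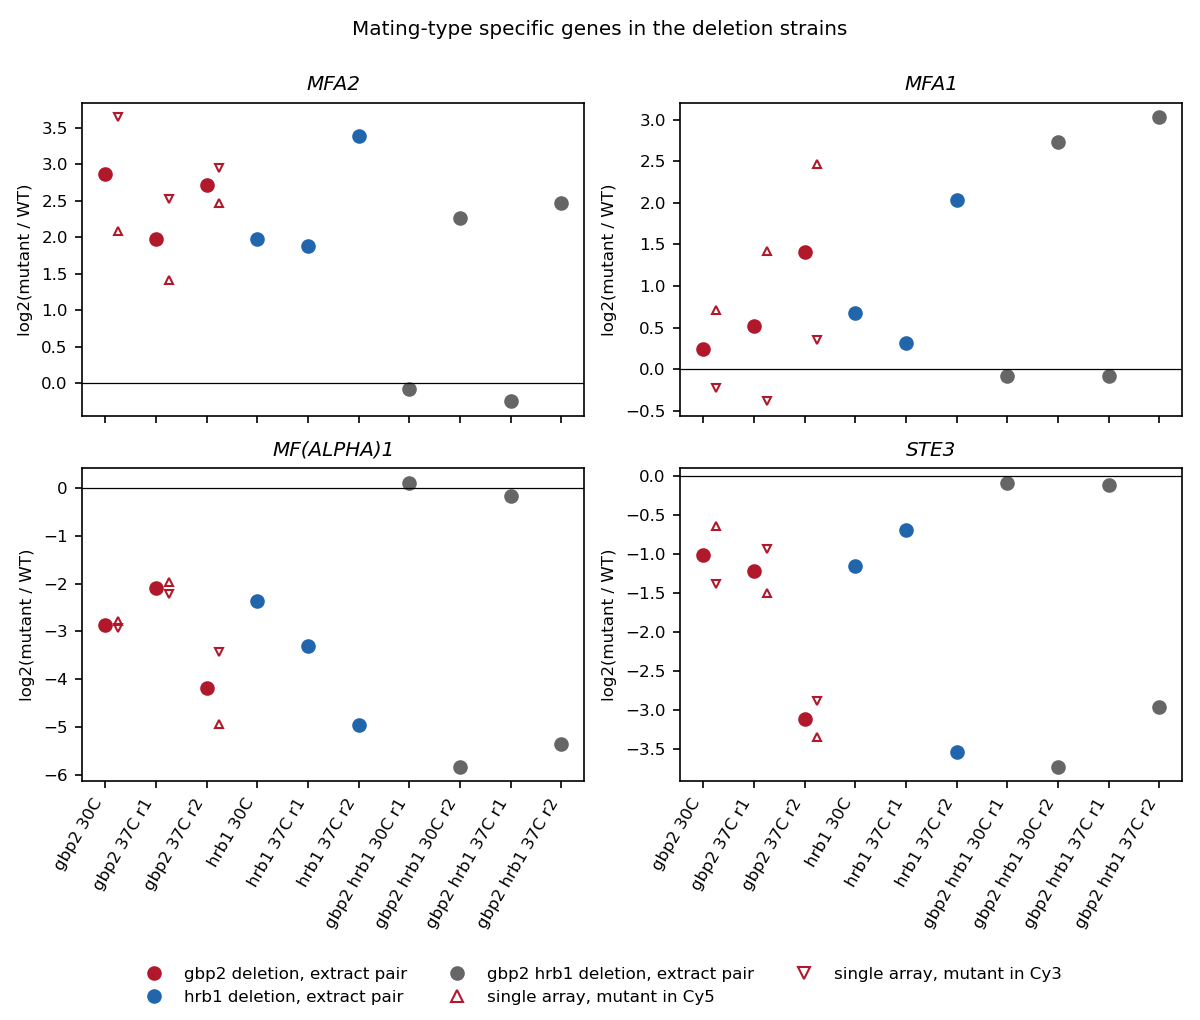
The log2 ratio of mutant over wild type is plotted for 2 a-specific genes (MFA2, MFA1) and 2 alpha-specific genes (MF(ALPHA)1, STE3) in 10 extract pairs, with symbols as for the SR-like genes. The gbp2Δ, hrb1Δ and second-replicate double deletion pairs lie on the same side of 0 in every panel, and the first-replicate double deletion pairs lie near 0.

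At 37 °C, 3 of the 1536 probes were called (0.195%), 2 higher and 1 lower. They were MFA2, GBP2 and GUP2, a gene of the membrane-bound O-acyltransferase family. GUP2 read 1.23 and 0.57 in replicate 1 and 0.24 and 1.81 in replicate 2, with the mutant in Cy5 first, but 0.13 and -0.01 at 30 °C. Its mean at 37 °C was 0.96 ± 0.19 (SE, n = 2 pairs, limma adjusted p = 0.0171). It was above 0 on all 4 arrays at 37 °C, but was called in only 7 of 13 alternatives (limma adjusted p up to 0.430), and was not called without replicate 1 (limma adjusted p = 0.255). Without replicate 2, 215 probes were called at 37 °C in place of 3, and without replicate 1 there were 2. At 30 °C, 13 probes were called (0.846%), 7 higher and 6 lower, from 1 pair whose spread was taken from the other groups. The higher probes were MFA2, GET4, the third probe of ARP9 (a chromatin remodelling subunit), RPL38, RPS20, the first probe of RPS7A and a probe without a gene name. The lower probes were GBP2, PAB1, GSP1 and the first probes of ACT1, RPL43A and SEC27 (a coatomer subunit). Between 37 °C and 30 °C no probe was called (0%, limma), with 82 at an unadjusted p under 0.05. Leaving out replicate 1 or replicate 2 at 37 °C gave 8 and 17 calls for this difference.

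Over the mean of the 3 pairs, 51 probes were called (3.32%), 36 higher (2.34%) and 15 lower (0.977%). Most of these probes were near 0 in the second title series. Of the 36 higher probes, all were above 0 in the 30 °C pair and in replicate 1 at 37 °C, with medians of 0.71 and 1.35. In replicate 2 their median was 0.09, 26 were above 0 and 2 were at least 1.5-fold higher. Of the 15 lower probes, the medians were -1.21 and -1.06 in the first title series and -0.11 in replicate 2, where 2 were at least 1.5-fold lower. All 6 arrays shared the direction for 7 higher and 5 lower probes. Leaving out replicate 2 raised the count from 51 to 230 (15.0% of all probes), 49 of the 51 among them. Leaving out replicate 1 at 37 °C lowered it to 8, and leaving out the 30 °C pair lowered it to 3. GBP2 and MFA2 were the probes called in all 3 of these reduced means. With title series as a random block, 26 of the 51 were called, 16 higher and 10 lower, and with the gbp2Δ pairs fitted alone 10 of them were. Of the genes described in the next paragraphs, YTH1, MEX67, GLE2, NOP1, SIR3, GLC7 and RPS17A were not called under the block (limma adjusted p between 0.0529 and 0.0887).

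**Figure D3:**
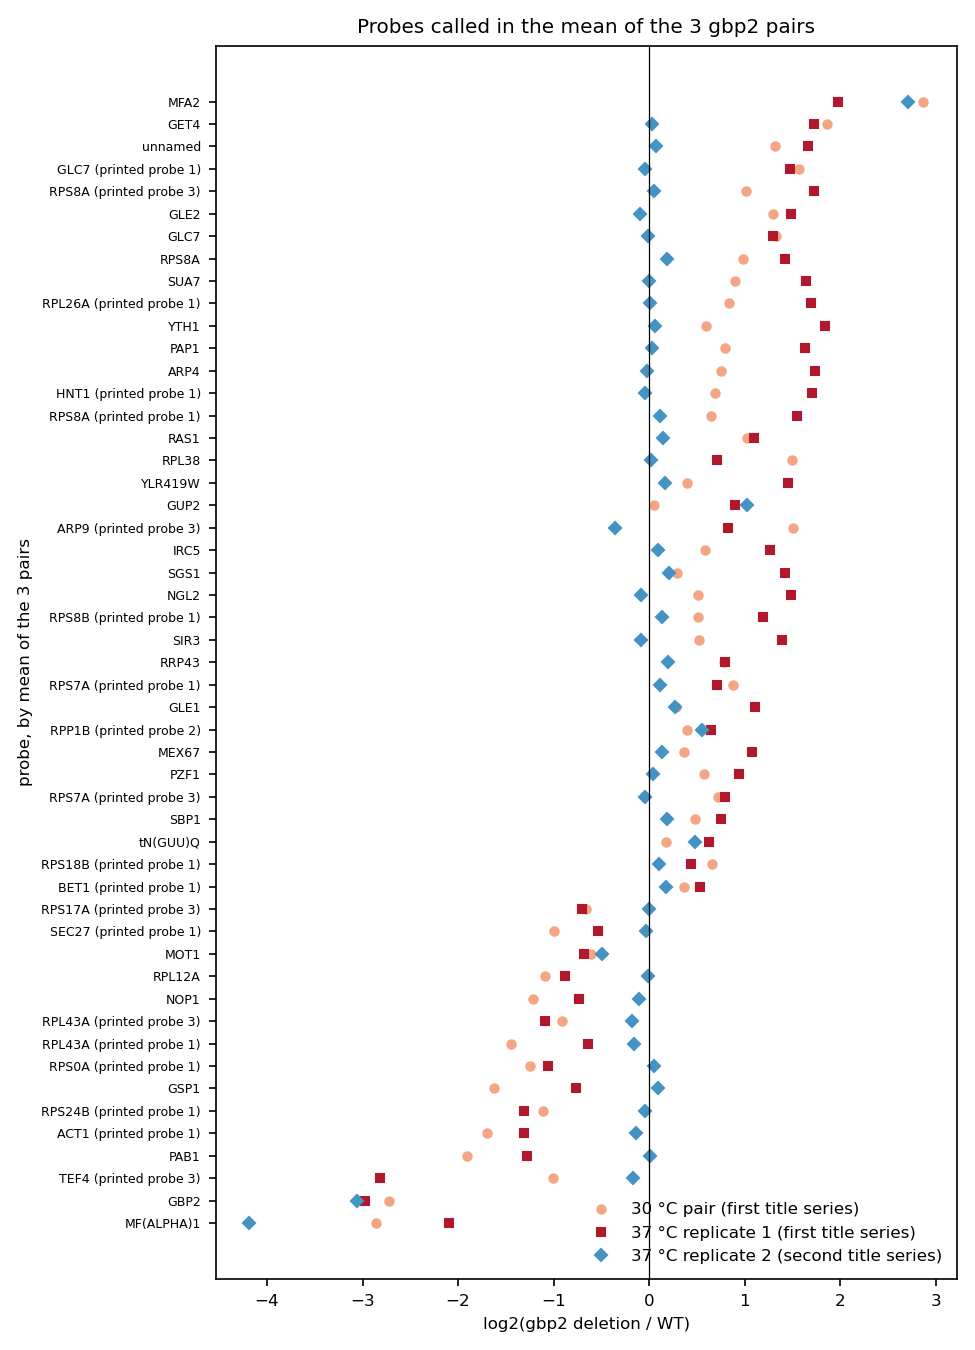
Each row is 1 of the 51 probes called in the mean of the 3 gbp2Δ pairs, and the horizontal axis is the log2 ratio of mutant over wild type in each pair. Apart from MFA2, GBP2, MF(ALPHA)1 and a few smaller values such as GUP2, the pair of the second title series (diamonds) lies close to 0 where the pairs of the first title series do not.

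The same split ran through the whole array. Over all probes, the 30 °C pair and replicate 1 at 37 °C had a Pearson correlation of 0.53, while replicate 2 had 0.11 with the 30 °C pair and 0.03 with replicate 1. These are descriptions over probes, and pairs of the same title series share whatever that series stands for. At least 2-fold differences were seen for 41 probes at 30 °C, 117 in replicate 1 and 11 in replicate 2. The dye-flipped arrays of a pair correlated at 0.33 in the 30 °C pair and at 0.50 in replicate 1, but at -0.31 in replicate 2, where 29.6% of the probes had the same sign in both orientations. Most probes of replicate 2 thus changed sign with the dye, while GBP2, MFA2 and MF(ALPHA)1 kept theirs. The part of dye, title series and strain in these differences was not tested.

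**Figure D4:**
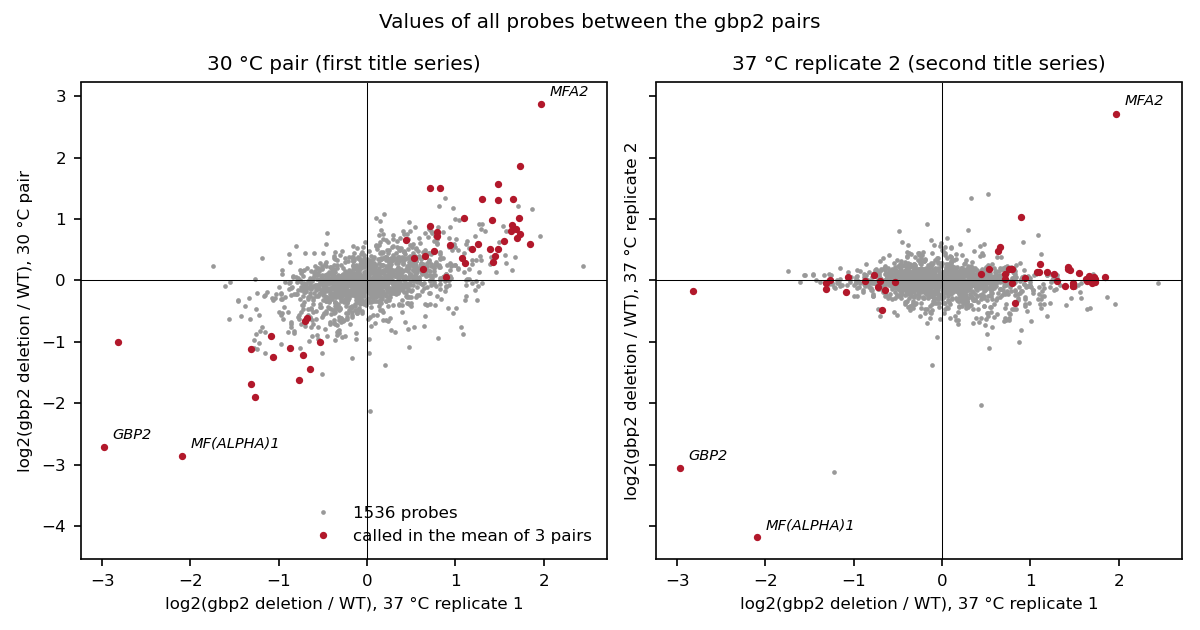
Log2 ratios of all 1536 probes in replicate 1 at 37 °C (horizontal) are set against the 30 °C pair (left) and replicate 2 at 37 °C (right). Red points are the 51 probes called in the mean of the 3 pairs. On the right they fall along the horizontal axis, except for GBP2, MFA2 and MF(ALPHA)1 and a few others.

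YTH1, a subunit of the cleavage and polyadenylation factor, was called at 0.59, 1.84 and 0.06 in the 30 °C pair, replicate 1 and replicate 2. Of 34 measured genes for mRNA export and packaging (41 probes), 3 probes rose and 2 fell in the mean (12.2%, against 3.32% of all probes), with a list median of -0.01 against -0.02 over all probes. The export receptor gene MEX67 read 0.37, 1.08 and 0.14 (mean 0.53 ± 0.14 SE, n = 3 pairs, limma adjusted p = 0.0304). GLE1, which activates the helicase that releases mRNA at the nuclear pore, read 0.28, 1.11 and 0.27 (mean 0.55 ± 0.13 SE, n = 3 pairs, limma adjusted p = 0.0202). GLE2, a pore-associated export factor, read 1.3, 1.48 and -0.09. The genes that fell were PAB1, which encodes the poly(A)-binding protein, and GSP1, which encodes the yeast Ran GTPase.

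PAB1 read -2.67 and -1.14 at 30 °C and -1.32 and -1.23 in replicate 1 at 37 °C, with the mutant in Cy5 first, against 0.13 and -0.11 in replicate 2. Its mean was -1.06 ± 0.18 (SE, n = 3 pairs, limma adjusted p = 0.00163), with an SD of 0.97 between the 3 pairs. GSP1 read -1.28 and -1.96 at 30 °C, -0.48 and -1.06 in replicate 1 and 0.17 and 0.01 in replicate 2, with a mean of -0.77 ± 0.15 (SE, n = 3 pairs, limma adjusted p = 0.00368). Both were low on all 4 arrays of the first title series and near 0 on both arrays of the second. The named gene with the highest mean after MFA2, among the called probes, was GET4, which acts in the insertion of tail-anchored proteins into the endoplasmic reticulum. GET4 read 1.86 in the 30 °C pair, 1.73 in replicate 1 and 0.03 in replicate 2 (mean 1.21 ± 0.22 SE, n = 3 pairs, limma adjusted p = 0.0022). The SD between these pairs was 1.02.

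Of 329 probes for 125 ribosomal protein genes, 10 rose (7 genes) and 6 fell (5 genes) in the mean, which is 4.86% against 3.32% of all probes. The list median was -0.09 against -0.02 over all probes. RPS8A, whose product is part of the small subunit, had 3 of its 4 probes called. Its unordered probe read 0.99, 1.42 and 0.18 in the 30 °C pair, replicate 1 and replicate 2 (mean 0.86 ± 0.18 SE, n = 3 pairs, limma adjusted p = 0.0103). A probe of its near-identical copy RPS8B read 0.51, 1.19 and 0.14, and signal of such copies may be shared between probes. RPL38 read 1.5, 0.71 and 0.02. In the opposite direction, RPL43A had 2 of 3 probes called. The first printed read -1.45, -0.64 and -0.16, and the third read -0.91, -1.09 and -0.18. The first probe of RPS24B read -1.11, -1.31 and -0.04. The second probe of RPP1B, an acidic protein of the ribosomal stalk, was alike in the 3 pairs, at 0.40, 0.65 and 0.55 (mean 0.53 ± 0.13 SE, n = 3 pairs, limma adjusted p = 0.0231). Over the alternatives its mean lay between 0.14 and 0.92, and it was called in 6 of 14. Outside this list, the third probe of TEF4, a translation elongation factor gene, fell to -1.01 at 30 °C and -2.82 in replicate 1, but read -0.17 in replicate 2. NOP1, which encodes fibrillarin, read -1.21, -0.73 and -0.11, and was the 1 probe called of 31 for ribosome biogenesis.

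Other groups gave few calls. Of 91 probes for 83 spliceosomal genes, none was called, and the list median was 0.02. The largest of these by the test statistic were BRR2, a spliceosomal helicase, at -0.20, -1.24 and -0.06, and ECM2 at 0.83, 0.70 and 0.05. Of 16 nuclear decay genes, RRP43, a subunit of the exosome, was called at 0.78, 0.79 and 0.19 (mean 0.59 ± 0.14 SE, n = 3 pairs, limma adjusted p = 0.0215). None of 19 probes for cytoplasmic decay was called, and the mRNA exonuclease gene XRN1 read -0.70, -0.75 and 0.16. None of the 11 chaperone probes was called, and SSA1 and SSA3 had means of -0.20 and 0.30. Of 10 probes for telomere and silencing genes, SIR3 was called at 0.52, 1.40 and -0.08. Lists for respiration (13 probes), carbon metabolism (4), amino acid synthesis (3), meiotic introns (34) and subtelomeric genes (1) had no call in the mean. Genes used as selection markers have no probe here.

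The first-series changes were next set against hrb1Δ in the same title series. In these hrb1Δ pairs HRB1 read -0.43 at 30 °C and -1.35 at 37 °C. Their dye-flipped arrays correlated at -0.22 and -0.16, and 36.5% and 38.6% of the probes had the same sign in both orientations. With replicate 2 of both strains left out, gbp2Δ differed from hrb1Δ in 88 probes (5.73%), 56 higher and 32 lower, and 37 of the 51 probes were among them. The 51 probes, and the genes named next, were picked from these same gbp2Δ pairs. Neither the overlap nor the p-values of those genes are therefore independent support. GET4 read 0.08 and -0.09 in the hrb1Δ pairs, and the difference was 1.80 ± 0.30 (SE, 2 pairs against 2, limma adjusted p = 0.00121). PAB1 read -0.41 and -0.04 there (difference -1.36 ± 0.27 SE, 2 pairs against 2, limma adjusted p = 0.00487). The first probe of ACT1, the actin gene, read -0.03 and 0.03 (difference -1.50 ± 0.28 SE, 2 pairs against 2, limma adjusted p = 0.00347). The npl3Δ pair of this title series at 37 °C departed from 0 in the same direction in some genes, with GET4 at 1.27, GSP1 at -0.98 and the third TEF4 probe at -1.64. In others it did not, with the first ACT1 probe at -0.11, RPL38 at 0.24 and the first RPS8A probe at -0.57. The third TEF4 probe also read -1.28 at 37 °C in an npl3Δ pair of another title series. At 30 °C the npl3Δ pair of the first title series read 0.08, 0.33 and 0.12 for GET4, GSP1 and the third TEF4 probe. Whether these arrays share a wild-type RNA is not stated.

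With all pairs included, gbp2Δ and hrb1Δ differed in 5 probes over the 3 pairs (0.326%), of which GBP2 alone was called when the pairs were matched by title series and temperature. At 37 °C they differed in 1 probe, GBP2 (0.0651%). The other 4 probes included HRB1 at 1.57 ± 0.30 (SE, 3 pairs against 3, limma adjusted p = 0.0128). They also included the second probe of RPP1B at 0.81 ± 0.18 (SE) and a probe without a gene name at 1.19 ± 0.23 (SE). The second probe of DTD1, a tRNA editing deacylase, was lower in gbp2Δ (limma adjusted p = 0.0198). It read -0.18, 0.35 and 0.03 in gbp2Δ and 2.72, 1.56 and 0.02 in hrb1Δ, far from 0 in the hrb1Δ pairs of the first title series only. Against the double deletion, 2 probes differed at 37 °C (0.130%). HRB1 was higher in the single deletion by 2.10 ± 0.37 (SE, 2 pairs against 2, limma adjusted p = 0.00795). ADR1, an activator of glucose-repressed genes, was lower by 1.56 ± 0.31 (SE). ADR1 read -0.70 and -0.57 in gbp2Δ and 1.22 and 0.62 in the double deletion. At 30 °C, 8 probes differed from the double deletion (0.521%). Here gbp2Δ is 1 extract pair, assumed to vary like the other groups, and the double deletion is of another title series, so strain and title series cannot be told apart in either comparison with it. HRB1 was higher by 2.54 ± 0.45 (SE, 1 pair against 2, limma adjusted p = 0.00614). Of the others, PAB1, GSP1, GET4, RPL38 and the first probes of ACT1 and SEC27 were also called in the 30 °C pair against wild type, and the first probe of SAR1, a GTPase of vesicle budding, was not. Both comparisons use the same gbp2Δ pair, so this overlap is not independent support.

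For 230 genes the array holds 3 probes in a fixed order of wells, and unequal change among them was measured as a probe contrast, which is the second printed probe less the third on the log2 scale. The labels do not say which part of a transcript a probe matches. A contrast away from 0 is therefore unequal change within a gene, and is not read as splicing. No contrast was called in gbp2Δ at 37 °C, at 30 °C or in the mean of the 3 pairs (0% in each, limma), with 16, 10 and 24 of 230 at an unadjusted p under 0.05. None was called between 37 °C and 30 °C or between gbp2Δ and hrb1Δ at 37 °C (0% in each), with 5 and 13 at an unadjusted p under 0.05. The median contrast was 0.07 in the 30 °C pair, 0.27 in replicate 1 and -0.02 in replicate 2, again apart by title series. For the 98 ribosomal protein genes it was 0.15, 0.35 and -0.003, and for the 132 other genes it was -0.02, 0.24 and -0.05. In the 3 hrb1Δ pairs the median over all genes lay between -0.06 and 0.03, and in the 6 npl3Δ pairs at 37 °C it lay between 0.24 and 0.55.

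**Figure D5:**
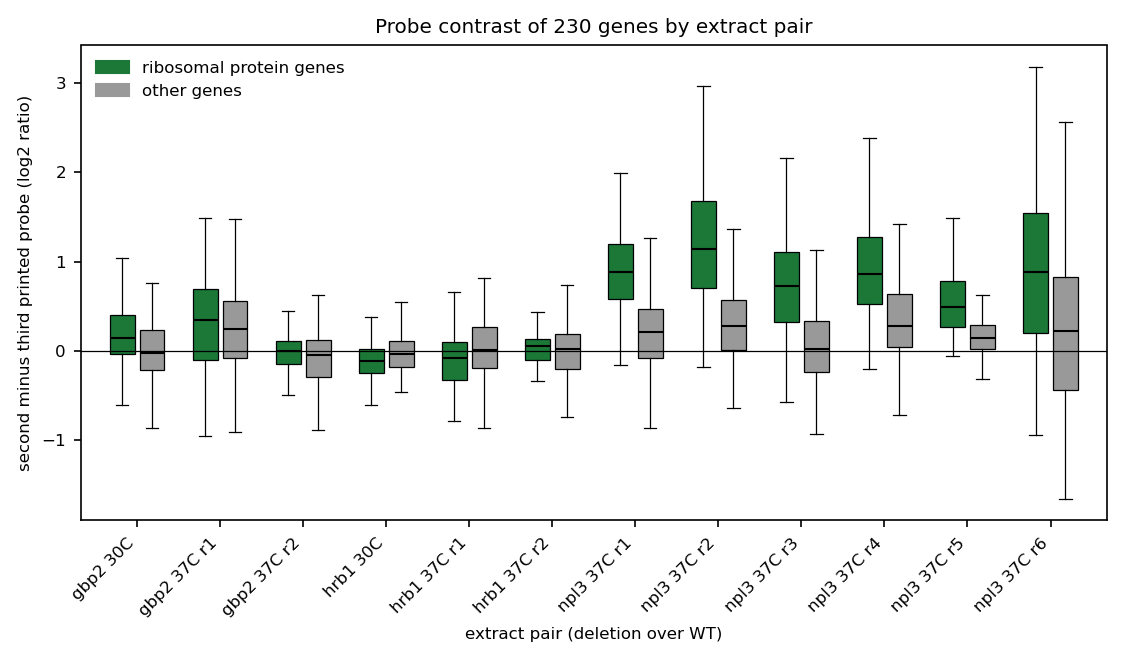
Boxes show the second minus the third printed probe (log2 ratio of mutant over wild type) for 98 ribosomal protein genes (green) and 132 other genes (grey) in each extract pair, with the median, the quartiles and whiskers to 1.5 times the interquartile range. The gbp2Δ medians stay at or under 0.35 in all pairs, whereas the ribosomal medians of npl3Δ at 37 °C lie between 0.49 and 1.14. The npl3Δ medians of the other genes lie between 0.02 and 0.28. Pair r6 of npl3Δ, which has a single array, holds 224 contrasts.

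The difference in contrast between gbp2Δ and npl3Δ at 37 °C had a median of -0.66 for the 98 ribosomal protein genes, with 8 above 0. For the 132 other genes the median was -0.10, with 53 above 0. RPS19B read -0.11, -0.72 and -0.25 in the gbp2Δ pairs, against 2.29 ± 0.62 (SD, n = 6 pairs) in npl3Δ at 37 °C. The difference at 37 °C was -2.77 ± 0.71 (SE, limma adjusted p = 0.0476). RPS14B, an autoregulated intron gene, read 0.85, 0.14 and -0.13, against 2.09 ± 0.80 (SD, n = 6 pairs), a difference that was not called (limma adjusted p = 0.169). In all, 3 contrasts were lower in gbp2Δ than in npl3Δ at 37 °C (1.3%) and none was higher, the others being RPS8B and RPL29. This count depends on 1 npl3Δ pair at 30 °C whose NPL3 probe goes against its label, and without that pair 49 contrasts were lower and none was higher. None was called with the median of the spots, with either dye alone, against a fold of 1.2 or without replicate 1 of gbp2Δ at 37 °C.

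Several of the contrasts with the largest statistics were furthest from 0 in replicate 1 at 37 °C. RPL22B read 0.30, 2.70 and 0.03, AMA1, a meiotic activator of the anaphase-promoting complex, read 0.45, 1.48 and 0.32, and TAN1 read -0.37, 1.69 and 0.46. CPT1 read -0.02, 1.13 and 0.43. None of these had a limma adjusted p under 0.117 at 37 °C. At 30 °C the largest statistic was that of ARP9, whose contrast was below 0, at -1.44, -1.13 and 0.24 in the 3 pairs (limma adjusted p = 0.173 at 30 °C). ARF2, at -1.17, -0.57 and 0.02, and RPS8A, at -1.10, -0.46 and -0.002, were also lowest at 30 °C. RPL28 read 1.04, 0.43 and 0.07, RPS25A read 0.86, 0.98 and -0.02, and RPL43A read 1.08, 1.46 and 0.09, none of them called. RPP1B read 0.32, 0.73 and 0.77 (mean 0.60 ± 0.19 SE, n = 3 pairs, limma adjusted p = 0.166), but its arrays of replicate 2 read -0.43 and 1.97. Of the 19 textbook intron genes measured (59 probes), 2 probes rose and 2 fell (6.78%, against 3.32% of all probes). Both that rose were probes of GLC7, the protein phosphatase 1 gene, which read 1.57, 1.48 and -0.04 for the first printed probe and 1.33, 1.3 and -0.01 for the unordered one. The probes that fell were the first of ACT1 and the third of RPS17A. The first ACT1 probe read -1.69, -1.31 and -0.14 (mean -1.05 ± 0.18 SE, n = 3 pairs, limma adjusted p = 0.00163), the third read -0.82, -0.82 and -0.11, and the second read 0.14, 0.10 and -0.09. By place in the print, 13 of 230 first probes, 1 of 230 second probes and 6 of 230 probes in the third place were called in the mean, and 31 of the 846 probes without such a place. These are 5.65%, 0.435%, 2.61% and 3.66%, against 3.32% of all probes.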

How the data were processed

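The deposited values, made by the authors before deposit, are 1 ratio for each of 9216 spots per array, taken as log2 ratios from their signs and range (at most 12.04 in size). No label states their scale, scanner, background correction or normalization. Values were read as mutant over wild type in both dye orientations, since GBP2 was low on all 6 gbp2Δ arrays. The mutant is channel 1 in the labels of both orientations. The 9216 spots are 1536 probes at 6 positions, 1457 of them named by the platform's gene table. In the 6 arrays, between 7.64% and 13.13% of the spots had no value, and array medians lay between -0.023 and 0.018. No intensities were used, so the number of arrays limits the precision.

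Spots of a probe and then the dye-flipped arrays of a pair were averaged. All 37 pairs were fitted with limma 3.58.1 in R 4.3.3 (17 coefficients for strain, temperature and time, 20 residual degrees of freedom). Probes with a value in at least 50% of the pairs were tested, and p-values were adjusted by Benjamini-Hochberg over all of them. The fit was tried on simulated pair values with known changes. These were drawn independently, without effects of title series or dye, so that trial says nothing about such effects in the data. The mean of the 3 gbp2Δ pairs weighted them equally. No label says whether the pairs are separate cultures. The p-values thus reflect the spread among extract pairs, which may be technical. Genes were named if they were SR-like, mating, pheromone or marker genes. Named too were up to 10 rises and 10 falls per comparison that were called, at least 1.5-fold and of the same sign on every array, and the called members of each gene list, or the 2 with the largest statistic where none was called. For contrasts, the 5 largest statistics were named where none was called. Probes called between strains and other probes of a named gene were added after their values were seen, for description. The members, gene lists, the print order and the sign of the probe contrast were chosen with earlier results of these data known. Alternatives covered spot summary, centring, missing values, the pairs fitted, dye, title series as a random block, a fold threshold and each pair left out. The comparisons with hrb1Δ within the first title series and with pairs matched by title series and temperature were added after the data were seen.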

Additional observations from a re-analysis of the deposited data

How the results depend on the processing

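The GBP2 and MFA2 values kept their sign under every alternative tried, and GBP2 was called in the mean of the 3 pairs in 14 of 14 alternatives and MFA2 in 13 of 14. The exception for MFA2 was the fit to the gbp2Δ, hrb1Δ and double deletion pairs alone (limma adjusted p = 0.144), in which GBP2 at 30 °C was also lost (limma adjusted p = 0.0590). The counts of called probes moved far more. In the order 37 °C, 30 °C and mean of 3 pairs, the reported counts are 3, 13 and 51. They were 6, 7 and 13 with the gbp2Δ pairs alone, 1, 1 and 1 with the gbp2Δ, hrb1Δ and double deletion pairs alone, and 91, 40 and 191 with the mutant in Cy3. The mutant in Cy5 gave 8 at 37 °C, centring each array gave 9 at 37 °C, and the median of the spots gave 26 at 30 °C. Title series as a random block gave 26 in the mean, and a test against a fold of 1.2 gave 6. Leaving out 1 pair gave between 2 and 215 at 37 °C and between 3 and 230 in the mean. For the difference between temperatures, the gbp2Δ pairs alone and the gbp2Δ, hrb1Δ and double deletion pairs alone gave 1 each, the mutant in Cy5 gave 2, and leaving out 1 pair gave 8 to 17. At least 2-fold differences between temperatures numbered 24, or 72 within the first title series.

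Against hrb1Δ at 37 °C (1), centring, the random block and leaving out the npl3Δ pair against its label gave 2 each, the 3 strains alone gave 0, the first title series gave 94, and leaving out 1 pair gave 1 to 147. Over the mean (5), the median of the spots gave 2, the fold threshold 1, the 3 strains alone 0, the first title series 88 and pairs matched by title series and temperature 1 (GBP2), and leaving out 1 pair gave 4 to 130. Against the double deletion at 37 °C (2), the median of the spots, the random block and the fold threshold gave 1, the 3 strains alone and the mutant in Cy5 gave 0, the mutant in Cy3 gave 4, and leaving out 1 pair gave 0 to 159. At 30 °C (8), either dye alone and the fold threshold gave 5, and the 3 strains alone gave 1. Contrasts against npl3Δ (3) numbered 0 with the median of the spots, with either dye alone and with the fold threshold, 49 without the npl3Δ pair against its label, and 0 to 8 when 1 pair was left out. Contrasts in gbp2Δ (0 in each comparison) numbered 8 at 37 °C, 1 at 30 °C and 8 in the mean with the mutant in Cy3, and 2 at 37 °C and 1 in the mean with the gbp2Δ pairs alone. The median of the spots gave 1 at 30 °C and 1 in the mean, and leaving out 1 pair gave 0 to 6 at 37 °C and 0 to 8 in the mean. Among single probes, tN(GUU)Q reversed, from 0.43 in the mean to -5.1e-05 with the mutant in Cy3. The causes were not tested. Replicate numbers were given in accession order and pair no samples, so the match by title series and temperature was the 1 paired fit made.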
